A study of Homo sapiens and Mus musculus with 16 samples.

Results

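The rows numbered 1000 or more among the human miRNAs of miRBase were few in reads and many in number in SK-HEP-1 cells. Of 385 rows in the 2 human miRNA tables, 88 are named hsa-miR- with a number of at least 1000 and without a star, the old mark for the less abundant arm of a hairpin. The table of the first culture batch lists 82 of them and that of the second batch 39, and 33 are in both. A further 206 rows without a star have a number under 1000, and served for comparison. The lowest number above the limit was that of miR-1180, with a mean of 8.06 RPM (reads per 1000000 quality reads), and the highest below it that of miR-940, with a mean of 0.109 RPM. The numbers carry no biology of their own, as miRBase gave them in order of submission.

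SK-HEP-1 is a cell line from a human liver cancer. Its cultures received AcFBE, the ethanol extract of *Antrodia cinnamomea* fruiting bodies, at 0.5 mg/ml in DMSO (T, treated) or DMSO alone (U, untreated) for 2 or 4 h. Each of the 4 conditions (2U, 2T, 4U and 4T) was sequenced once from each of 2 culture batches, on a SOLiD 3 in batch 1 and a SOLiD 5500xl in batch 2. Culture batch and sequencer therefore cannot be told apart. The mouse liver cell line BNL CL.2 had 1 small RNA library per condition, and SK-HEP-1 had 1 mRNA library per condition. The labels name no transgene and no deletion, and each cell line stands for a single line and not for a tissue.

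A miRNA is cut from a hairpin transcript by Drosha in the nucleus and by Dicer in the cytoplasm, and 1 arm of the hairpin is loaded into an Argonaute protein. Bases 2 to 8 of the mature strand, the seed, pair with sites in target mRNAs. Early entries of miRBase were mostly found by cloning and are conserved among mammals. Later ones came largely from deep sequencing, many are found in few species, and some were later withdrawn because their reads come from tRNA, rRNA, snoRNA or repeats. The authors removed reads with a perfect match to tRNA or to the RNA families of Rfam, and reads matching repeats of Repbase, before they assigned reads to miRBase.

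RefSeq (GRCh38.p14) gave a mature sequence for 77 of the 88 late-numbered rows and for 181 of the 206 rows under 1000. For 62 of the 77 the name was the same, for 2 RefSeq listed 1 arm, and for 13 it listed both arms while the table does not name the arm. The sequences of the late-numbered rows with a mean of at least 1 RPM are shown because the comparison of treated and untreated cells rests on them, with the seed in capitals and both arms where the table names none. No RefSeq entry was matched for miR-3676, miR-4286 and miR-2964a-5p.
miR-1180-5p: gGACCCACccggccgggaaua
miR-1180-3p: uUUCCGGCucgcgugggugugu
miR-1249-5p: aGGAGGGAggagaugggccaaguu
miR-1249-3p: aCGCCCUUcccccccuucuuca
miR-1256: aGGCAUUGacuucucacuagcu
miR-1267: cCUGUUGAaguguaaucccca
miR-1271-5p: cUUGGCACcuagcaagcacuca
miR-1271-3p: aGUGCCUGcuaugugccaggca
miR-1285-3p: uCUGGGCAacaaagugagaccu
miR-1972: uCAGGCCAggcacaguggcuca
miR-2355-5p: aUCCCCAGauacaauggacaa
miR-4677-3p: uCUGUGAGaccaaagaacuacu

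The sequence of miR-1972 occurs 460 times in the human genome (GRCh37, both strands, no mismatch) and that of miR-1285-3p 18 times. Both are known to lie in Alu elements, the most frequent short repeat of primates. A read of either cannot be assigned to its hairpin by sequence alone. The 3p arm of miR-1271 has 17 matches and its 5p arm 1, and the table does not say which arm was counted. All other matched late-numbered rows had at most 3 matches, and 59 of the 77 had 1 for each listed arm. Among the matched rows under 1000, 1 had more than 3 (miR-574-5p, largely a run of alternating bases, with 30 matches). None of the 77 overlapped a tRNA, rRNA, snRNA, snoRNA, Y RNA or vault RNA gene of RefSeq. This lookup says little about how many late entries overlap other RNA. It covers the entries that RefSeq still holds, leaves out the 11 unmatched rows with miR-3676 among them, and found no overlap for miR-1260b, miR-3648 and miR-4521, which are on the list of entries known to match other RNA.

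The seed of miR-1271-5p is also that of miR-96, a miRNA of a cluster known from sensory cells, so the 2 would address the same kind of target site. The seed of miR-2682-5p is shared with miR-34b, of the p53-induced miR-34 family. No seed was shared between the 9 late-numbered rows with at least 1 RPM and a sequence. miR-1271-3p shares its seed with miR-550a, and miR-1323 with miR-548o. The other shared seed among late-numbered rows was that of a family of near-copies, shown because its rows hold the same reads. The rows miR-3689a-5p, miR-3689b and miR-3689e have 1 mature sequence between them and miR-3689f differs within it.
miR-3689a-5p: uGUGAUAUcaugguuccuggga
miR-3689f: uGUGAUAUcgugcuuccuggga
The first 3 rows had the same count in each library, 5 reads in 2U of batch 1 and 0 elsewhere. The same 5 reads were thus listed in each of the 3 rows. miR-3689f had 3 reads, all in 4U of batch 1.

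Most late-numbered miRNAs sat inside other genes, and so did most rows under 1000. Of 71 rows with a position in GRCh37, 49 (69.0%) lay in an intron of a protein-coding gene on the same strand, against 94 of 158 (59.5%) of the rows under 1000. Another 6 overlapped an exon on the same strand, 4 lay in another kind of gene, 7 faced a gene on the opposite strand and 5 overlapped no other gene. Of the 158 rows under 1000, 10 overlapped such an exon, 5 faced a gene on the opposite strand and 8 overlapped no other gene. The remaining 41 (25.9%) lay in another kind of gene, mostly long non-coding RNA, against 4 of 71 (5.63%). No test was made of these shares, since neighbouring hairpins are not independent. MIR1180 (3p arm at chr17:19247826-19247847, minus strand) lies in an intron of B9D1, a ciliary transition zone gene, and MIR4677 (3p arm at chr1:243509527-243509548, plus strand) in an intron of SDCCAG8, a centrosomal gene. MIR2355 (5p arm at chr2:207974767-207974787, minus strand) lies in an intron of KLF7, a zinc finger transcription factor. MIR1972-1 (chr16:15104186-15104207, minus strand) lies opposite an intron of PDXDC1.

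The late-numbered rows took little of the miRNA reads. They held 0.168 to 0.356% of the summed counts of all miRNA rows in the 4 untreated libraries. In the 4 treated ones they held 0.126 to 0.168%. These sums were 173239 to 881237 reads per library. In most libraries they were below the reads that the study lists as mapped to miRBase. The 95% Wilson interval of the lowest share was 0.110 to 0.144% and that of the highest 0.343 to 0.369%, and these cover counting error only. The 12 rows with at least 1 RPM held 72.0 to 89.4% of the late-numbered reads in each library. The share was 0.225% ± 0.0891 (SD, n = 4) in untreated and 0.150% ± 0.0195 (SD, n = 4) in treated libraries. Without miR-3676, the most abundant of them, it was 0.149% ± 0.0450 and 0.134% ± 0.0187.

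Their levels lay far below those of the rows under 1000. The median of the mean RPM was 0.112 over the 88 rows and 4.66 over the 206, and the highest was 25.8 RPM (miR-3676) against 6940 RPM (miR-125b). Averaged over the 8 libraries, 1 RPM was reached by 12 of 88 (13.6%) against 137 of 206 (66.5%), and a mean of 100 RPM by 0 against 35. In all 8 libraries a count above 0 was seen for 11 of 88 against 118 of 206. At the other end, 34 of the 88 were above 0 in only 1 library, and 60 had no more than 10 reads in any. The decline with the number was already visible below 1000: 83.8% of the rows numbered 1 to 199, 59.6% of those from 200 to 499 and 41.8% of those from 500 to 999 reached 1 RPM. The share was 30.4% from 1000 to 1999, 6.67% from 2000 to 3999 and 10.0% from 4000 up.

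**Figure D1:**
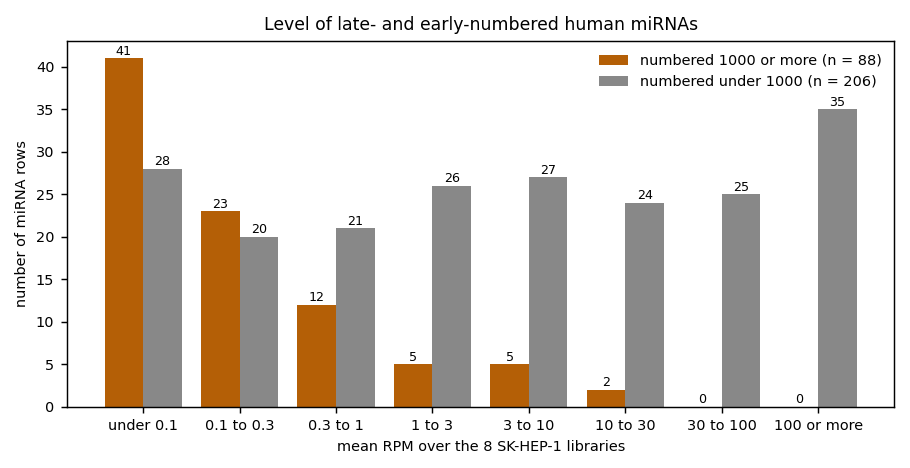
Number of human miRNA rows (vertical axis) in classes of the mean RPM over the 8 SK-HEP-1 libraries (horizontal axis), for the 88 rows numbered 1000 or more and the 206 numbered under 1000. Of the late-numbered rows, 41 lie under 0.1 RPM and none reaches 30 RPM.

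The 12 late-numbered rows with at least 1 RPM were all lower per quality read in batch 2, with a median log2 ratio of batch 2 to batch 1 of -2.49. Of 134 tested rows under 1000 with reads in both batches, 104 were lower in batch 2, and the median was -1.63. The range of the 12 ran from -4.71 (miR-2964a-5p) to -0.71 (miR-1249). After all read filters (adapter, length, rRNA, repeats and tRNA), 40.6 to 52.3% of the quality reads were left in batch 1 and 17.1 to 32.6% in batch 2. As a check of the cell line, hepatocyte miRNAs (miR-122, miR-192 and miR-194) summed to 21.5 to 64.4 RPM in untreated and 10.6 to 23.5 RPM in treated libraries, and blood miRNAs to at most 0.982 RPM. Of the hepatocyte list, miR-192 had 8.07 to 62.2 RPM and miR-194 at most 1.70 RPM. miR-122, which marks hepatocytes, was at most 9.82 RPM and was 0 in at least 1 library. Muscle miRNAs summed to at most 0.170 RPM. The nerve miRNA miR-9 ranged from 0.446 to 10.2 RPM in untreated and from 0 to 2.76 RPM in treated libraries. The endothelial miR-126 ranged from 0 to 206 RPM in untreated and from 19.8 to 26.1 RPM in treated libraries. Its part in the results was not tested.

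The question for treated against untreated cells was whether late-numbered miRNAs fell with AcFBE more or less than earlier-numbered miRNAs of like level. Nearly all miRNAs were lower per quality read after AcFBE: 195 of 199 rows tested (98%) had a log2 fold change below 0, with a median of -1.37. The summed counts of the miRNA rows made up 2.65 to 12.4% of the quality reads in untreated and 1.23 to 2.91% in treated libraries. In RNA pooled from a culture, fewer cells that make a miRNA and less of it per cell cannot be told apart. The value of a single miRNA is thus read against this median. When the counts were scaled to the miRNA total instead, the median of all tested rows moved to 0.10, and the direction of 5 of the 12 late-numbered rows turned.

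All 12 late-numbered rows had a log2 fold change below 0, from -3.65 (miR-3676) to -0.56 (miR-1249). A row could reach the mean of 1 RPM through its untreated libraries alone, so this direction can be partly tied to the filter. None passed an adjusted p of 0.05 (edgeR quasi-likelihood test with terms for batch and time, adjusted by Benjamini-Hochberg over 199 rows), and neither did any other row (0% called). At an unadjusted p under 0.05, 7 of the 12 were lower, against 45.7% of all tested rows. All 4 treated libraries lay below all 4 untreated ones for 3 of the 12 (15.6% of all tested rows), and 8 of the 12 were lower in 4 of 4 pairs of the same batch and time (62.8% of all). With each pair of batch and time as a replicate block, 5 of the 12 passed (miR-3676, miR-1285, miR-4677-3p, miR-1972 and miR-1271, adjusted p = 0.0360 to 0.0392), among 60 rows in all. With DESeq2 it was 7 of the 12, among 94 rows.

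miR-3676, an entry known to overlap a tRNA gene, was the most abundant late-numbered row. It had 65.6 RPM in 2U and 97.7 RPM in 4U of batch 1, and 13.8 and 17.7 RPM in batch 2. In treated cells it had 3.90 RPM in 2T and 2.83 RPM in 4T of batch 1, and 2.88 and 1.91 RPM in batch 2. Every treated library lay below every untreated one, although the untreated level differed between batches. The log2 fold change was -3.65 ± 0.61 (SE), with an adjusted p of 0.0559 (edgeR), a value that many other rows share. Its unadjusted p of 0.000389 (edgeR) was the smallest among the 199 rows. Of all tested rows, 1 had a lower log2 fold change. Per miRNA read it was lower as well, with 426 to 1407 reads per 1000000 miRNA reads in untreated and 112 to 223 in treated libraries. On that scale the log2 fold change was -2.16, with an unadjusted p of 0.00581 and an adjusted p of 0.578 (edgeR). Reads with a perfect match to tRNA moved the same way. The tRNA filter removed 14.0% of the reads that reached it in 2T against 21.4% in 2U of batch 1, and 7.76% in 4T against 28.3% in 4U. The shares in batch 2 were 21.7 against 44.5% at 2 h and 15.3 against 35.6% at 4 h. The share was lower in the treated library of all 4 pairs, and its part in the result was not tested.

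The 2 rows in Alu elements had the next lowest values among the late-numbered rows. miR-1285 had 15.8 and 5.60 RPM in 2U and 4U of batch 1 and 1.69 and 1.31 RPM in 2T and 4T. In batch 2 it had 1.95 and 0.248 RPM untreated and was listed at 0 in both treated libraries, where 3 reads would be 0.176 and 0.213 RPM. Treated lay below untreated in each batch, but the untreated libraries of batch 2 overlapped the treated ones of batch 1. Its log2 fold change of -3.46 ± 0.93 (SE, adjusted p = 0.0559, edgeR) includes these zeros and is no bound. Within batch 1, where no library was at 0, the log2 ratios were -3.23 at 2 h and -2.10 at 4 h.

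miR-1972 had 5.47 and 2.89 RPM in 2U and 4U of batch 1 and 0.520 and 0.545 RPM in 2T and 4T. In batch 2 it had 0.617 and 0.396 RPM untreated, 0 in 2T and 0.142 RPM in 4T, the last from 2 reads. It was lower in 4 of 4 pairs, with overlap between the groups across batches. The log2 fold change was -2.85 ± 0.81 (SE, adjusted p = 0.0559, edgeR). Of the tested rows under 1000, miR-574-5p was the only one with more than 3 genome matches, and its log2 fold change was 0.19 ± 0.63 (SE, adjusted p = 0.791, edgeR). miR-574-5p is not one of the Alu rows, and the part of the number of genome matches in these values was not tested. The repeat filter removed 0.783 and 1.02% of the reads that reached it in 2U and 4U of batch 1 and 0.526 and 0.585% in 2T and 4T. The shares in batch 2 were 0.836 and 0.620% untreated and 0.521 and 0.333% treated, lower in the treated library of all 4 pairs, and the part of this in the values of both Alu rows was not tested. miR-1285, miR-1972 and miR-3676 were grouped here after their values were seen.

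miR-4286 differed most between times. It had 7.57 RPM in 2U, 4.81 RPM in 2T, 46.3 RPM in 4U and 4.14 RPM in 4T of batch 1, and 11.9, 6.12, 12.9 and 1.28 RPM in the same order in batch 2. The groups did not overlap, and 4U of batch 1 stood far above the other untreated libraries. The log2 fold change was -0.86 ± 0.88 (SE) at 2 h and -3.43 ± 0.96 (SE) at 4 h, and the difference between times was -2.57 ± 1.26 (SE, unadjusted p = 0.0787, adjusted p = 0.953, edgeR). Over both times it was -2.14 ± 0.80 (SE, adjusted p = 0.0841, edgeR), and -1.39 without 4U of batch 1. In batch 2, which does not hold that library, the log2 ratio was -0.96 at 2 h and -3.34 at 4 h.

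miR-1271, which shares its seed with miR-96 if its 5p arm was counted, had 23.7 and 14.3 RPM in 2U and 4U and 4.81 and 3.38 RPM in 2T and 4T of batch 1. In batch 2 it had 6.03 and 5.84 RPM untreated and 2.71 and 3.19 RPM treated. The groups did not overlap. The log2 fold change was -1.60 ± 0.49 (SE, adjusted p = 0.0584, edgeR), close to the median of all tested rows. miR-96, at a mean of 39.0 RPM, had -1.17 ± 0.60 (SE, adjusted p = 0.151, edgeR).

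miR-1180 had the log2 fold change nearest 0 among the 5 late-numbered rows with the highest mean. It had 15.4 and 20.8 RPM in 2U and 4U and 8.45 and 11.2 RPM in 2T and 4T of batch 1, and 2.85 and 2.72 RPM untreated and 1.76 and 1.28 RPM treated in batch 2. It was lower in 4 of 4 pairs, by log2 ratios of -0.69 to -1.09, and the batches overlapped between the groups. The log2 fold change was -0.87 ± 0.42 (SE, adjusted p = 0.134, edgeR). Scaled to the miRNA total it was 0.61, that is, above 0. B9D1, the gene around it, had 42.0 FPKM untreated and 32.3 treated at 2 h, and 51.5 and 35.5 FPKM at 4 h. These values are from the mRNA table, which has 1 library per condition and no test. The other listed genes around tested late-numbered rows had at most 0.876 FPKM. Of these, SDCCAG8 and KIAA0930 (around miR-1249) were higher in treated cells at 2 h, and EIF4G3 and NALF1 were lower.

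miR-4677-3p had 14.4 and 4.75 RPM in 2U and 4U and 2.60 and 2.29 RPM in 2T and 4T of batch 1. In batch 2 it had 2.04 and 1.78 RPM untreated and 0.647 and 0.496 RPM treated. It was lower in 4 of 4 pairs, with a log2 fold change of -1.79 ± 0.51 (SE, adjusted p = 0.0559, edgeR). miR-1267, in an intron of NALF1, a subunit of a sodium leak channel complex, had 9.11 and 12.1 RPM in 2U and 4U and 2.34 and 1.20 RPM in 2T and 4T of batch 1. In batch 2 it had 4.65 and 1.34 RPM untreated and 1.94 and 1.13 RPM treated, and the pair at 4 h differed little (log2 ratio -0.24). The log2 fold change was -1.78 ± 0.65 (SE, adjusted p = 0.0836, edgeR).

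Of the remaining 4 rows, miR-1256 and miR-2964a-5p were near the limit of counting in batch 2. miR-2355-5p had 10.2 against 2.21 RPM (untreated against treated) at 2 h and 6.03 against 1.74 RPM at 4 h in batch 1, and in batch 2 it had 0.902 against 0.529 RPM at 2 h and 0.644 against 0.709 RPM at 4 h. The other arm, miR-2355-3p, had 2 to 16 reads per library, and the 5p arm exceeded it in all 8 libraries, by 1.80 to 5.92 times. miR-1256, in an intron of the translation initiation factor gene EIF4G3, had 5.61 and 5.52 RPM untreated and 2.21 and 1.42 RPM treated in batch 1, and 0 to 0.567 RPM in batch 2. miR-2964a-5p had 4.21 and 2.38 RPM untreated and 0.780 and 0.872 RPM treated in batch 1, and 0 to 0.198 RPM in batch 2. miR-1249 was the most even between batches, with 0.982 and 2.46 RPM untreated and 1.04 and 1.85 RPM treated in batch 1, and 1.52 and 0.990 RPM untreated and 0.941 and 0.425 RPM treated in batch 2. These 4 had log2 fold changes of -1.53 to -0.56 and adjusted p of 0.151 to 0.457 (edgeR).

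**Figure D2:**
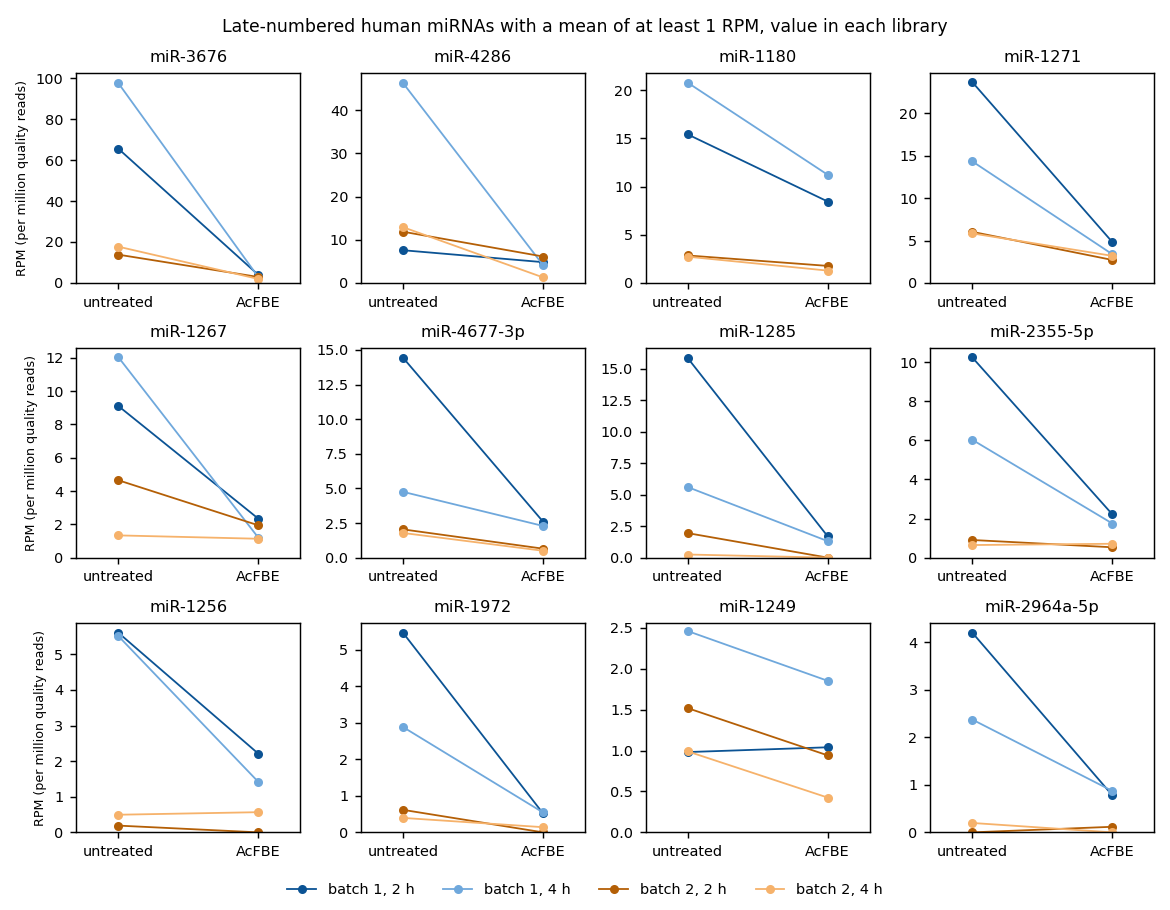
RPM (vertical axis, linear, own scale per panel) of each of the 12 late-numbered miRNAs that averaged 1 RPM or more, in untreated and AcFBE-treated libraries (horizontal axis), with a line for each pair of batch and time. Every line falls for miR-3676, while miR-1249, miR-1256, miR-2355-5p and miR-2964a-5p each have 1 line that rises.

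At 2 h, 4 of the 12 were lower at an unadjusted p under 0.05 (22.1% of all tested rows), and at 4 h 2 of the 12 (12.6% of all). The smallest adjusted p at 2 h was 0.215 and at 4 h 0.279 (edgeR). No late-numbered row differed between the times at an unadjusted p under 0.05, against 3.52% of all rows, and the smallest adjusted p was 0.953 (edgeR). The median log2 fold change of the 12 was -1.56 at 2 h and -1.72 at 4 h.

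Against rows of like level, the 12 had a lower median in 2 of the 3 level classes they fill and nearly the same in the lowest. Their median log2 fold change over both times was -1.69, against -1.32 for the 137 tested rows under 1000 and -1.31 for the 72 of these with a mean between 1.07 and 25.8 RPM, the range of the 12. From 1 to 3 RPM the median was -1.19 for 5 late-numbered and -1.18 for 26 other rows. From 3 to 10 RPM it was -1.78 for 5 and -1.37 for 27. From 10 to 30 RPM it was -2.89 for the 2 late-numbered rows, miR-3676 and miR-4286, and -1.26 for 24. At an unadjusted p under 0.05, 7 of the 12 (58.3%) and 24 of the 72 (33.3%) were lower. A log2 fold change under -2 was seen for 4 of the 12 and for 9 of the 72 (12.5%). Rows entered by their mean over all 8 libraries, so a low row could pass through its untreated libraries alone. miR-1972 and miR-2964a-5p did so, as their treated libraries were all under 1 RPM. The filter thus favours low rows that fell, in both groups of rows. Without miR-3676, miR-1285 and miR-1972 the median of the other 9 differed from that of the 137 rows by -0.21.

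Within single pairs the sign of the difference was not stable. The median log2 ratio of the 12 rows, less that of the 72 rows of like level, was -0.52 at 2 h and -0.52 at 4 h in batch 1, and 0.19 and -0.08 in batch 2, with a mean of -0.24 ± 0.35 (SD, n = 4 pairs). Rows at 0 in a library of the pair were left out, which left 8 and 10 of the 12 in batch 2. Over all late-numbered rows above 0 in both libraries of a pair, 19 to 24 of them, the median was -1.74 and -0.97 in batch 1 and -0.69 and -0.80 in batch 2. For the rows under 1000 it was -1.73 and -1.47, and -1.17 and -1.01. The difference was here 0.29 ± 0.24 (SD, n = 4 pairs), of the opposite sign. A row with 2 or 3 reads enters such a ratio only if it kept reads in the treated library, and with at least 10 reads in either library the difference was -0.13.

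**Figure D3:**
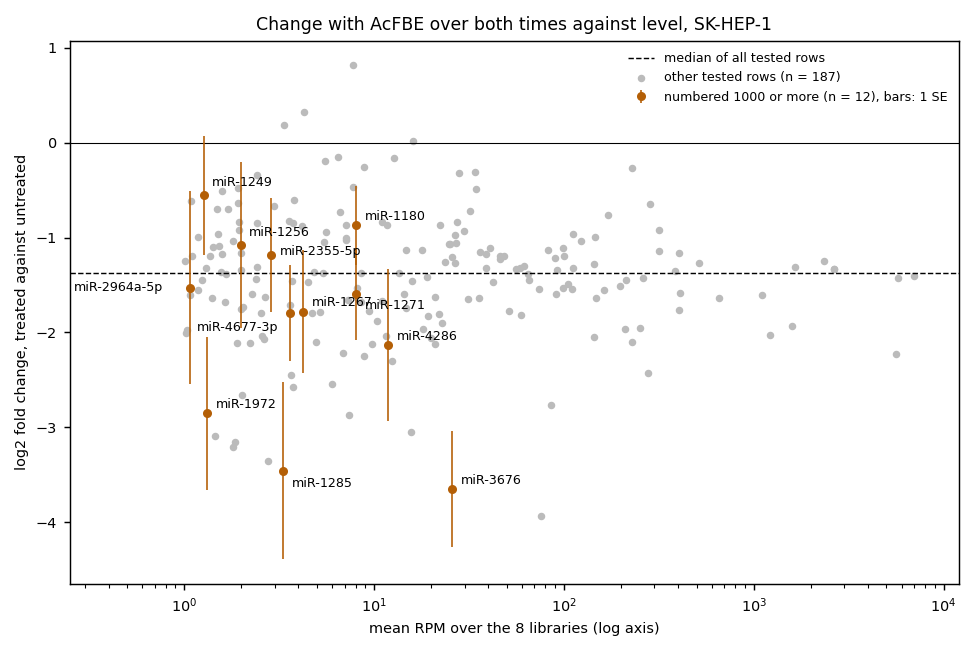
Log2 fold change of treated against untreated over both times (vertical axis) against the mean RPM over the 8 libraries (horizontal log axis) for the 199 tested rows, with the 12 late-numbered rows in colour (bars, 1 SE) and the median of all rows dashed. All 12 lie below 0, and miR-3676, miR-1285 and miR-1972 lie lowest among them.

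The 76 late-numbered rows under 1 RPM were not tested. Over the 4 pairs their summed RPM was lower in treated cells for 70 and higher for 6, against 61 lower and 8 higher of the 69 rows under 1000 below 1 RPM. Reads in untreated libraries alone were seen for 41 of the 76 and in treated libraries alone for 3, against 29 and 1 of the 69. By level, 37 of 41 late-numbered and 23 of 28 other rows were lower under 0.1 RPM, 22 of 23 and 19 of 20 from 0.1 to 0.3 RPM, and 11 of 12 and 19 of 21 from 0.3 to 1 RPM. A row is listed only if some library holds reads of it, so a low row that lost reads can still be listed while its treated count is 0.

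Summed over the rows of a class, the treated to untreated ratio of late-numbered rows was -2.63 on the log2 scale under 0.1 RPM, -1.98 from 0.1 to 0.3 RPM and -1.35 from 0.3 to 1 RPM. For the rows under 1000 it was -2.15, -2.36 and -1.42. From 1 to 3 RPM it was -1.64 against -1.27, from 3 to 10 RPM -1.66 against -1.34, and from 10 to 30 RPM -3.29 against -1.45. In that last class every pair was lower for miR-3676 and miR-4286 together than for the 24 other rows. The log2 ratios of the pairs were -4.37 to -1.51 against -1.63 to -0.87. At 2 h in batch 2 the values were close, at -1.51 against -1.45. The class holds only these 2 late-numbered rows, and for miR-4286 the 4U library of batch 1 stood far above the other untreated ones.

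**Figure D4:**
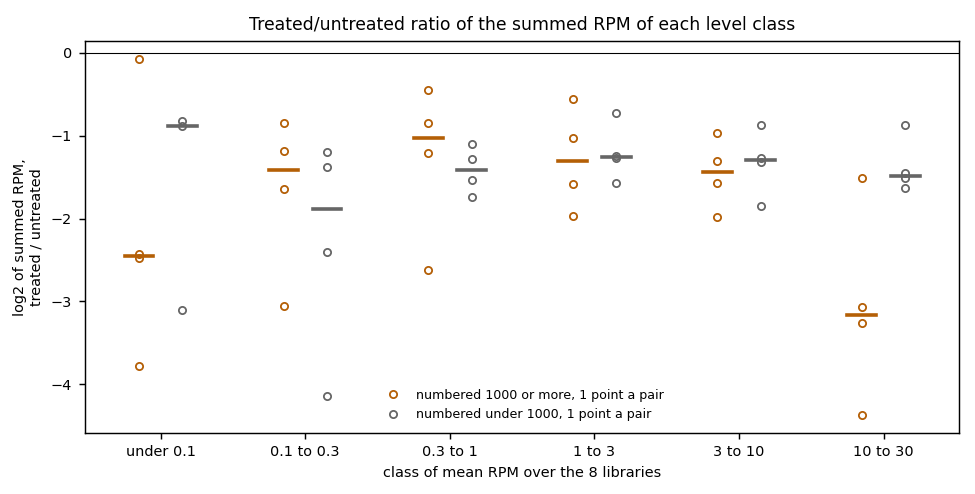
Log2 of the summed RPM in treated over untreated libraries (vertical axis) for each class of mean RPM (horizontal axis), with 1 point for each pair of batch and time and a bar at the median of the pairs. From 10 to 30 RPM the late-numbered points run from -4.37 to -1.51 and the others from -1.63 to -0.87, and 1 pair is not drawn for the other rows under 0.1 RPM because its treated sum is 0.

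Among the rows under 1 RPM, the 6 with a higher sum in treated libraries had 2 to 42 reads in all. The largest of them, miR-4532, was listed in batch 2 alone, at 0 in 2U, 0.294 RPM in 2T, 1.09 RPM in 4U and 1.06 RPM in 4T. miR-3940-3p, the highest row below the limit, had 1.68 and 0.849 RPM in 2U and 4U and 0.520 and 1.31 RPM in 2T and 4T of batch 1. In batch 2 it had 1.38 and 0.545 RPM untreated and 0.882 and 0.709 RPM treated. It was lower at 2 h and higher at 4 h in both batches, by single values with no test. miR-2682, which shares the miR-34b seed if its 5p arm was counted, had 1.28 and 1.68 RPM in 2U and 4U, 0 in 2T and 0.567 RPM in 4T of batch 2, and 3 reads in all of batch 1.

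Some hairpins gave reads from both arms or both strands. miR-3065, on the strand opposite the miR-338 hairpin, had more 3p than 5p reads in 2U, 4U and 4T of batch 1 (10 against 2, 40 against 12 and 7 against 0) and in 2U of batch 2 (7 against 0). The arms were equal in 2T of batch 1 (3 reads each) and 4U of batch 2 (2 each), in 2T of batch 2 the 5p arm had 3 reads and the 3p arm 0, and 4T of batch 2 had none. miR-3074, opposite the miR-24-1 hairpin, had 2 to 8 reads of the 5p arm and 3 to 5 of the 3p arm in the libraries of batch 1 where each was seen, and none in batch 2. miR-24 itself had 43.1 to 1111 RPM. miR-3173-5p lies in an intron of DICER1, the gene of the enzyme that makes mature miRNAs. It had 3 to 11 reads in each of the 8 libraries, lower in treated cells in 4 of 4 pairs, with log2 ratios of -1.28 to -0.50. DICER1 is listed at 0 FPKM in all 4 mRNA libraries, as are ARL10 and KRIT1, the genes around miR-1271 and around MIR1285-1.

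Of the 27 names on a list of entries known to match other RNA (tRNA, mitochondrial, Y, rRNA, snoRNA and U2-like), 4 are in the human tables and 1 was tested, miR-3676. miR-1260b, an entry known to resemble a tRNA fragment, had 1.68 and 0.594 RPM in 2U and 4U and 0 and 0.545 RPM in 2T and 4T of batch 1, and 0.522 and 0.149 RPM untreated and 0 treated in batch 2. miR-4521 had 4 reads and miR-3648 2 reads, all in 4U of batch 1. Outside the late numbers, miR-720 and miR-886 are in neither table.

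In BNL CL.2, the mouse cells, the rows numbered 1000 or more had lower medians than the rows under 1000. With a mean of at least 1 RPM and reads in both libraries, 16 such rows had a median log2 ratio of -0.64 at 2 h and -0.38 at 4 h, and 13 and 11 of them were lower in the treated library. The 103 and 102 rows under 1000 had -0.25 and 0.04, with 70 and 49 lower. In the range of mean RPM of the 12 human rows, the medians were -0.59 and -0.35 for 13 rows and -0.27 and 0.27 for 48 and 47 rows. With 1 library per condition there is no replicate check. miR-1249, the tested human row with a mouse row of the same name, had 29.5 RPM untreated and 22.6 treated at 2 h, and 22.9 and 25.2 RPM at 4 h, in the mouse cells.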

How the data were processed

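Small RNA of both cell lines, BNL CL.2 and SK-HEP-1, and mRNA of the latter were sequenced by the authors. The miRNA tables hold deposited read counts per miRBase entry, without normalization. Adapters were first trimmed with cutadapt, and reads matching tRNA, Rfam or repeats were removed. Known miRNAs were then identified with miRBase, and the paper describes mapping to hg19 only for the reads that remained. Bowtie was used in version 0.12.7. The mRNA table holds FPKM that the authors made with TopHat and Cufflinks. Its values were used as listed, without a test.

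RPM are counts over the quality reads that the study lists for each library (7131622 to 21069453 in SK-HEP-1). A row absent from a batch's table was set to 0. The smallest count above 0 was 2, so a listed 0 can be 1 read. A count of 0 allows 3 reads, or 0.142 to 0.421 RPM, for counting error only. Tested were the 199 rows averaging 1 RPM or more across 8 libraries, by the quasi-likelihood test of edgeR 4.0.16 (R 4.3.3) with terms for batch and time and Benjamini-Hochberg adjustment. The biological coefficient of variation was 0.678. Batch was kept as a block, because deviations from the condition means correlated between conditions at 0.463 to 0.730 over 6 pairs of conditions. The p-values over both times measure the spread of the 8 libraries left after the terms for batch, time and treatment. Those at each time come from a fit with 1 mean per condition plus batch. Each SE was derived from the test, as the size of the log2 fold change over the square root of the F statistic. Each condition had 2 cultures, which also differed in sequencer. DESeq2 1.42.0 and limma 3.58.1 were alternatives, beside other scalings and filters, the pair as a block and leaving out each library. Comparisons of late-numbered rows with rows under 1000 are descriptions without a test. Other steps used Python 3.11.15, and the test was tried on simulated counts.

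Sequences came from RefSeq (GRCh38.p14). Perfect matches to them were searched in GRCh37, whose GENCODE annotation gave the positions. Overlap with small RNA genes was taken within RefSeq. Rows and lists were chosen with earlier results of these data known. The rows named with values were the 20 tested late-numbered rows of highest mean RPM (there were 12), the 3 lowest and 3 highest fold changes among them, and the tested row of the list of other RNA. Others are named as chosen afterwards: rows under 1 RPM with values, miR-96, miR-574-5p and miR-24.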

Additional observations from a re-analysis of the deposited data

Results flagged for a closer look

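Of the values of the 12 tested late-numbered rows and of their summaries, 1 library stood far from the others of its group. miR-4286 had 46.3 RPM in 4U of batch 1, while the other 3 untreated libraries had 7.57 to 12.9 RPM. The gap to the nearest was 0.862 of the range of the 4 libraries, above the 95% limit of Dixon's test. Chance alone would give about 1 such library in 20 groups, and 37 groups were looked at. Without it the log2 fold change of miR-4286 was -1.39.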

How the results depend on the processing

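Directions changed with the scaling, and the number of calls with the scaling, tool, filter and block. Scaled to the miRNA total, 7 of the 12 tested late-numbered rows had a negative log2 fold change. An unadjusted p under 0.05 was seen for 1 of them and for 5 of all 199 rows. The median of the 12 was -0.18 and that of the rows under 1000 was 0.14. On that scale miR-1180 was at 0.61, miR-1249 at 0.88, miR-1256 at 0.45, miR-2355-5p at 0.31 and miR-2964a-5p at 0.066. With TMM factors the medians were -0.39 and -0.056, and 1 late-numbered row had an unadjusted p under 0.05 (5 of all 199 rows). miR-1180 was then at 0.42, miR-1249 at 0.70, miR-1256 at 0.24 and miR-2355-5p at 0.11. Scaled to the reads left after all filters, tRNA last, 9 of the 12 passed an adjusted p of 0.05, against 100 of all 199 rows. The median of the rows under 1000 was then -1.65. DESeq2 called 7 (94 of all 199 rows), and 2 at 2 h. limma on log2(RPM + 1) called 3 (42 of all 199 rows), with a median of -1.14 and a difference from the rows under 1000 of -0.056. With the pair of batch and time as a replicate block 5 were called (60 of all 199 rows). With no replicate block 0 were called, and 1 had an unadjusted p under 0.05 (20 of all 199 rows). The block changed no direction.

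Without a filter, 80 of 88 late-numbered rows were below 0, 0 were called, and the difference of the medians was -0.73. With a mean of at least 10 RPM, 2 late-numbered rows were left (1 called, 2 negative and 2 at an unadjusted p under 0.05). Of all 104 rows left, 20 were called and 56 had an unadjusted p under 0.05. The median of the 2 late-numbered rows was -2.89 and the difference -1.56. With each library left out in turn, 0 were called and 4 to 7 had an unadjusted p under 0.05 (4 without 2T of batch 1). Of all 199 rows, 53 to 84 had an unadjusted p under 0.05. All 12 late-numbered rows stayed negative. Their median ran from -1.88 to -1.41 and its difference from the rows under 1000 from -0.57 to -0.16. For ratios within pairs, the median of late-numbered rows was -0.36 with log2(RPM + 1), -2.65 with at least 10 RPM and 0.44 on the miRNA total. Its difference from the rows under 1000 was 0.54 with log2(RPM + 1), -1.23 with at least 10 RPM and -0.13 with at least 10 reads, and each pair left out gave 0.23 to 0.40. Rows listed in both tables, and the 9 rows without miR-3676, miR-1285 and miR-1972 (difference -0.21), were alternatives chosen after seeing the data. The cause of these changes was not tested, beyond that a scaling to the miRNA total removes a change shared by all miRNAs. Depth limited the 76 rows under 1 RPM to counts of direction.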
